A study of Mus musculus with 8 samples.

Results

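The creatine cycle is described here by 7 genes, *Ckb*, *Ckm*, *Ckmt1*, *Ckmt2*, *Gatm*, *Gamt* and *Slc6a8*, taken by symbol from the 38364 genes with a transcript in the FPKM table of inguinal white adipose tissue (ING WAT). All 7 were found. FPKM gives fragments per kilobase of transcript, scaled to the mapped fragments of the library, so levels of different genes can be compared per length. The FPKM of a gene is the sum of its transcripts. The study followed white fat after weaning in C57BL/6j mice. Poly(A)+ RNA of whole ING WAT was sequenced at postnatal day (PN) 21 from 4 mice, named m1, m49, m138 and m145, and at PN98 from another 4, named m35, m106, m114 and m125. The labels name no transgene or drug, and each library is 1 mouse. The study fed AIN93G up to PN21 and for a time after it, then AIN93M or a western style diet (WSD) until PN98. The diet of the sequenced PN98 mice is not given in the sources used here. In either case diet differed along with age and cannot be told apart from it.

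Creatine is made in a pair of steps. GATM joins arginine and glycine to guanidinoacetate, GAMT methylates this to creatine, and SLC6A8 carries creatine into cells across the plasma membrane. Creatine kinases pass phosphate between ATP and creatine, CKB and CKM in the cytosol and CKMT1 and CKMT2 between the mitochondrial membranes. CKB is the form of brain and many other tissues and CKM that of skeletal muscle, whereas CKMT1 is known as the ubiquitous and CKMT2 as the sarcomeric mitochondrial form. In thermogenic fat, cycling of creatine and phosphocreatine is known as a route of heat production beside UCP1.

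The depth of the libraries is unknown, since FPKM and not counts were used, and no counting error is given. Of the lists of marker genes, *Adipoq*, which encodes the adipocyte hormone adiponectin, was present at 817 to 1279 FPKM at PN21 and at 2512 to 3653 FPKM at PN98, so adipocyte RNA was abundant in all 8 mice. *Ucp1* was present at 544 to 650 FPKM at PN21 and at 7.41 (m35), 278 (m106), 56.3 (m114) and 356 (m125) FPKM at PN98 (limma adjusted p = 0.149). It belongs to a list of 9 thermogenic genes, all tested, of which none passed at an adjusted p under 0.05. Their log2 fold changes (PN98 minus PN21) ran from -2.81 (*Ucp1*) to 1.81 (*Elovl3*), with a median of -0.67. The summed FPKM of 18 skeletal muscle genes, mostly of fast fibres, lay between 72.4 and 654 at PN21 and between 567 and 3587 at PN98. Summed lymphocyte genes (7 genes) lay between 274 and 667 FPKM at PN21, at 595 in m35 and between 12.2 and 115 in the other PN98 mice. Summed genes of peripheral nerve (6 genes) lay between 203 and 427 FPKM at PN21 and between 63.3 and 98.3 at PN98. The Y-linked *Ddx3y* was present at 18.1 to 22.1 FPKM at PN21 and at 19.9 to 25.9 at PN98, and *Xist* was at most 0.832 FPKM. In bulk tissue, fewer cells of a type and less RNA per cell cannot be told apart.

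The sequences just before the starts of *Ckm*, *Ckmt2* and *Ckb* are shown because the kinases split into a muscle-related pair and *Ckb* in the values that follow. Each is the 250 bases before the RefSeq start (GRCm38.p6, the mm10 build of the files), 5′ to 3′ on the strand of the gene. Windows were found for 6 of the 7 genes. Capitals mark CAGCTG, an E-box of the kind that myogenic factors bind, TATAAA, the TATA box, and CTANNNNTAG, a MEF2 site, searched on both strands. Only exact matches to these letters are marked, so similar stretches, such as tatataa in the *Ckm* window, stay in lower case.
Ckm, chr7:19410844-19411093, plus strand: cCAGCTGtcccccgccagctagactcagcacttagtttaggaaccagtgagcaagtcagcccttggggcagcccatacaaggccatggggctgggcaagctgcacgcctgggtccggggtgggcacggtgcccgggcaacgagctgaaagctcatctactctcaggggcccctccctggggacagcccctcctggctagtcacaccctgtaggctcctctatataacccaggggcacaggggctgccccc
Ckmt2, chr13:91876886-91877135, minus strand: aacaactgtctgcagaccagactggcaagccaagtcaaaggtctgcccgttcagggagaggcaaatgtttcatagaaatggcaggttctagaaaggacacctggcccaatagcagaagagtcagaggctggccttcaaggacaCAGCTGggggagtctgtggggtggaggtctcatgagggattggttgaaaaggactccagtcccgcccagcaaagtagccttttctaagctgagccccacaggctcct
Ckb, chr12:111672339-111672588, minus strand: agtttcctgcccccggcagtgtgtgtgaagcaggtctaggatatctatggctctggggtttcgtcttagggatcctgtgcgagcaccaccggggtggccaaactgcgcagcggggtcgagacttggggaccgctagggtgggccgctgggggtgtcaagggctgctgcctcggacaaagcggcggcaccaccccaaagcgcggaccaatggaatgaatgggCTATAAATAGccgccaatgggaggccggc
CAGCTG began at base -249 of *Ckm* and at base -107 of *Ckmt2*, counted back from the start, and was in none of the other 4 windows. It was in 13.0% of the 32851 windows of this length in the table. The *Ckb* window held CTATAAATAG from base -29, in which the TATA box and the MEF2 site overlap. TATAAA was in 12.4% and CTANNNNTAG in 3.20% of all windows. These matches describe letters and not factor binding, which was not measured.

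Among the 3 genes of creatine supply, *Gamt* had the highest mean. At PN21 its summed FPKM was 26.9 (m1), 32.8 (m49), 13.5 (m138) and 28.7 (m145). At PN98 it was 26.2 (m35), 12.2 (m106), 41.7 (m114) and 9.89 (m125). Both ages held high and low mice and their ranges overlapped widely. The means were 25.4 ± 8.35 at PN21 and 22.5 ± 14.7 at PN98 (SD, n = 4 each), a log2 fold change of FPKM + 1 of -0.32 (PN98 minus PN21, 95% interval -1.40 to 0.76, limma adjusted p = 0.674). *Gamt* lies on chromosome 10 (80258151 to 80261012, minus strand), next to *Dazap1*, and 1 *Dazap1* transcript that the table lists under both genes was not counted.

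*Gatm*, which encodes the first and regulated step of creatine synthesis, had lower values. It was present at 6.11 (m1), 3.74 (m49), 6.59 (m138) and 5.78 (m145) FPKM at PN21. At PN98 it was present at 3.99 (m35), 3.66 (m106), 4.17 (m114) and 1.02 (m125) FPKM. The means were 5.55 ± 1.25 at PN21 and 3.21 ± 1.48 at PN98 (SD, n = 4 each). PN21 mouse m49 lay inside the range of PN98, and m125 was far below the other PN98 mice. The log2 fold change of -0.71 (95% interval -1.46 to 0.04) did not pass the test (limma adjusted p = 0.200). *Gatm* is on chromosome 2 (122594467 to 122611303, minus strand), and its protein coding transcript held between 74.6% and 96.5% of its FPKM at PN21 and at least 81.1% at PN98.

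The creatine transporter gene *Slc6a8* was higher in every PN98 mouse than in any PN21 mouse. The PN21 values were 7.35 (m1), 3.89 (m49), 7.52 (m138) and 6.42 (m145) FPKM. The PN98 values were 9.78 (m35), 11.8 (m106), 10.1 (m114) and 10.4 (m125) FPKM. The mean was 1.67 times as high at PN98 (10.5 ± 0.899) as at PN21 (6.29 ± 1.68; SD, n = 4 each). The log2 fold change was 0.69 (standard error 0.20, 95% interval 0.22 to 1.16), with a limma adjusted p of 0.0895 as deposited. With median of ratios scaling, which sets the median gene of all mice level, it was 0.90 with an adjusted p of 0.0467. With scaling to the summed FPKM outside the mitochondrial genome, the log2 fold change was 0.93 with an adjusted p of 0.0757. Over 19 alternatives the adjusted p ran from 0.0241 to 0.553. *Slc6a8* is on the X chromosome (73673150 to 73682502, plus strand).

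Among the 13 listed transcripts of *Slc6a8*, the most abundant in every mouse was ENSMUST00000114464, which the annotation marks as a target of nonsense-mediated decay. It held 45.1% (m1), 49.2% (m49), 46.5% (m138) and 72.0% (m145) of the gene's FPKM at PN21, and 39.9% (m35), 37.7% (m106), 37.9% (m114) and 54.0% (m125) at PN98. The summed FPKM of its protein coding transcripts lay between 1.25 and 2.42 at PN21 and between 2.89 and 5.50 at PN98. These sums too stood apart (exact two-sided permutation p = 0.0286, the smallest that 4 against 4 mice can give). The only protein coding transcript that met the test conditions, ENSMUST00000033752, overlapped between the ages. It was at 0.964 to 2.13 FPKM at PN21 and at 1.70 to 2.75 at PN98 (limma adjusted p = 0.254). Another part of the sums was ENSMUST00000171398, at 0 to 0.794 FPKM at PN21 and at 0 to 2.70 at PN98. How Cufflinks divided reads among these overlapping transcripts was not tested.

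**Figure D1:**
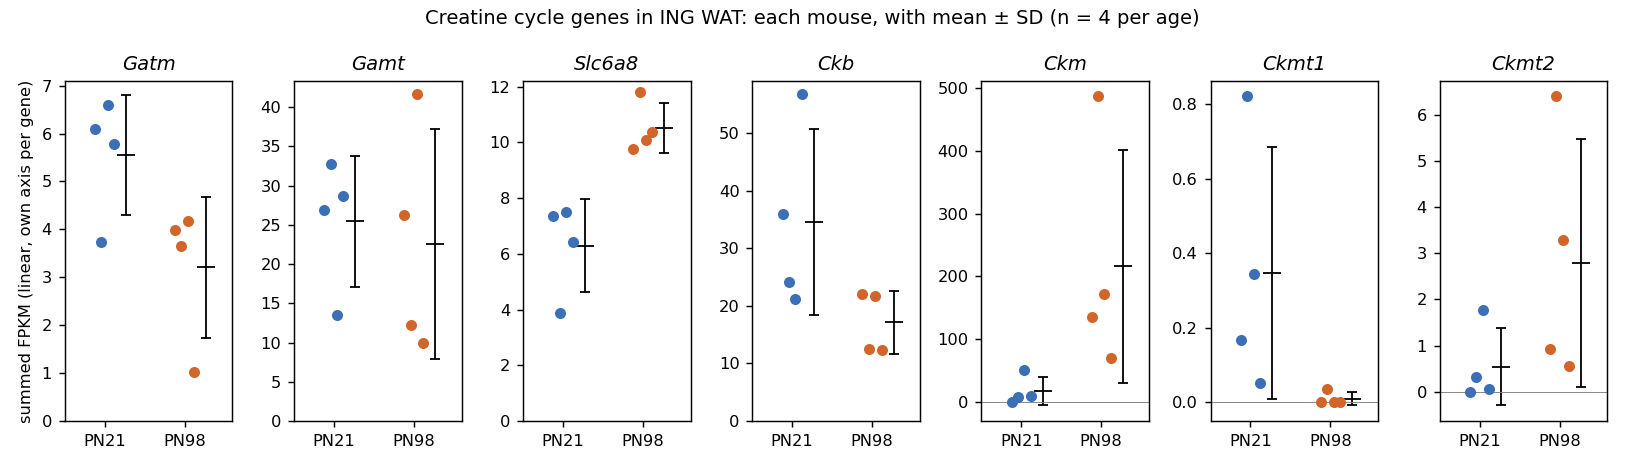
Summed FPKM of the 7 genes in each mouse, on a linear axis of its own for each gene, with 4 PN21 mice in blue, 4 PN98 mice in orange and the mean ± SD beside them. *Slc6a8* (9.78 to 11.8 FPKM at PN98) and *Ckm* (69.8 to 487 FPKM at PN98) lay above all PN21 mice, *Ckmt1* was at most 0.0354 FPKM at PN98, and *Gamt*, *Gatm*, *Ckb* and *Ckmt2* overlapped between the ages.

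*Ckb* was the leading creatine kinase gene in 3 of the 4 PN21 mice. At PN21 it was present at 36.0 (m1), 24.2 (m49), 21.1 (m138) and 56.8 (m145) FPKM, and at PN98 at 22.1 (m35), 12.6 (m106), 21.7 (m114) and 12.3 (m125) FPKM. The highest value was that of m145, and m138 lay below 2 of the PN98 mice. The mean was 2.01 times as high at PN21 (34.5 ± 16.2) as at PN98 (17.2 ± 5.47; SD, n = 4 each). The log2 fold change of -0.91 (standard error 0.35, 95% interval -1.71 to -0.12) did not pass the adjustment over all genes (limma adjusted p = 0.147). Without m145 it was -0.64 (adjusted p = 0.264 from limma), and over 19 alternatives the adjusted p ran from 0.0266 to 0.830. *Ckb* has 1 transcript in the table (chromosome 12, 111669355 to 111672338, minus strand), so no division between transcripts entered its value. Of the nerve genes, 5 were tested and 3 fell with age at an adjusted p under 0.05 from limma. The part of nerve in the *Ckb* values was not tested.

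*Ckm* spanned the range from 0.347 to 487 FPKM. It was present at 0.347 (m1), 7.79 (m49), 50.4 (m138) and 8.71 (m145) FPKM at PN21. At PN98 it was present at 135 (m35), 487 (m106), 173 (m114) and 69.8 (m125) FPKM. Every PN98 mouse was above every PN21 mouse, with m138 nearest to them. The means were 16.8 ± 22.7 at PN21 and 216 ± 186 at PN98 (SD, n = 4 each), a ratio of 12.9. The ratio was 38.5 without m138 and 7.48 without m106, and 9.69 to 15.8 without any other mouse. The log2 fold change was 4.27 (standard error 1.05, 95% interval 1.86 to 6.67) with a limma adjusted p of 0.0559 as deposited. The adjusted p was 0.0382 with median of ratios scaling, 0.0442 with scaling to the summed FPKM outside the mitochondrial genome, 0.0425 without m138 and 0.0381 without m35, within a range of 0.00956 to 0.488 over 19 alternatives. *Ckm* is on chromosome 7 (the table's transcript spans 19411094 to 19421583, plus strand) and overlaps the antisense gene *A930016O22Rik*, whose own transcript was at most 0.371 FPKM.

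*Ckmt2* was near the limit of the tested range. Its mean was 0.539 FPKM at PN21 and 2.79 at PN98, so it met the mean of 1 FPKM needed for the test only through the PN98 mice. Without m106 it fell below that mean and was not tested. It was listed at 0 (m1), 0.330 (m49), 1.77 (m138) and 0.0536 (m145) FPKM at PN21 and was present at 0.920 (m35), 6.39 (m106), 3.28 (m114) and 0.554 (m125) FPKM at PN98. The order of the mice within each age was that of *Ckm*, except that m49 was above m145, and m138 lay above m35 and m125. The log2 fold change was 1.15 (95% interval -0.10 to 2.40, limma adjusted p = 0.208). *Ckmt1*, the other mitochondrial kinase gene, had a mean below 1 FPKM and was not tested. It was listed at 0.168 (m1), 0.821 (m49), 0.344 (m138) and 0.0523 (m145) FPKM at PN21 and at 0 in all PN98 mice but m106 (0.0354). The mitochondrial kinases were thus both low beside *Ckb* and *Ckm*.

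In the test across all genes, limma called 845 of 16094 genes at an adjusted p under 0.05, or 5.25%, and none of the 6 creatine genes tested. Before adjustment, limma gave a p under 0.05 for 3 of the 6 (*Ckb*, *Ckm* and *Slc6a8*), against 27.3% of all genes tested. No overlap between the mice of both ages was seen for *Ckm* and *Slc6a8*, 2 of the 6, against 16.1% of all genes tested. At the level of single transcripts, which the study tested, 313 of 23093 transcripts (1.36%) passed at an adjusted p under 0.05. None of the 6 creatine transcripts that met the expression conditions did. The study itself took transcripts at an unadjusted p under 0.05. In the limma fit here, 2 of the 6 (*Ckb* and *Ckm*) were under that threshold, against 21.8% of all transcripts tested. Over all genes the log2 fold change had a median of -0.21, and over the 6 one of 0.19. The former was -0.02 with median of ratios scaling, so fold changes as deposited can be read against -0.21.

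**Figure D2:**
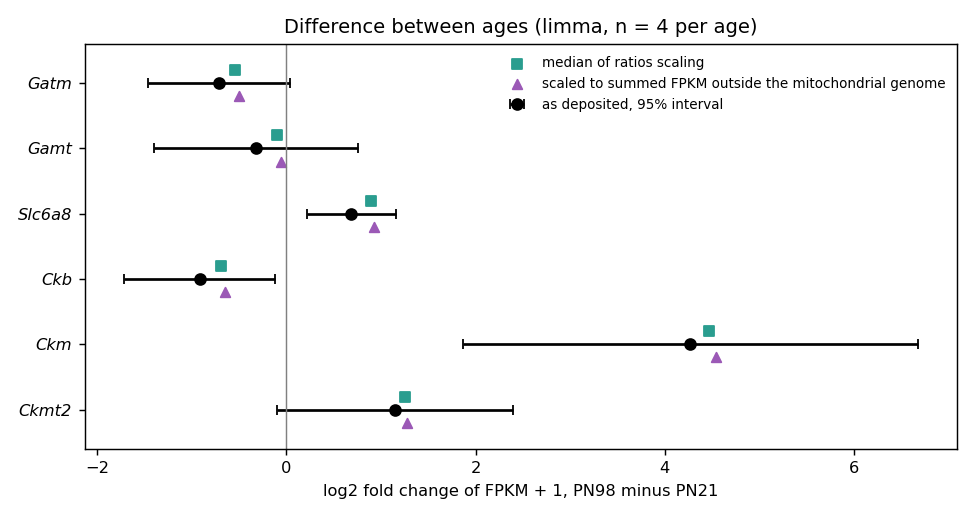
Log2 fold change of FPKM + 1 between PN98 and PN21 for the 6 genes tested, as deposited with its 95% interval (black circles) and as a point under median of ratios scaling (green squares) and scaling to the summed FPKM outside the mitochondrial genome (purple triangles). The interval excludes 0 for *Slc6a8*, *Ckb* and *Ckm* before adjustment over all genes, and both scalings moved each of the 6 genes upwards.

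The make-up of the creatine kinase RNA differed between the ages. *Ckm* held 0.951% (m1), 23.5% (m49), 68.4% (m138) and 13.3% (m145) of the summed FPKM of the 4 kinase genes at PN21. At PN98 it held 85.4% (m35), 96.2% (m106), 87.4% (m114) and 84.5% (m125). The share of *Ckb* was 28.7% to 98.6% at PN21 and 2.48% to 14.9% at PN98. These shares do not depend on the scaling between mice. The shares of both ages stood apart (two-sided exact permutation test, p = 0.0286 for each), and m138 was the PN21 mouse nearest to PN98. The shares of *Ckb* and *Ckm* are near complements of each other, so these are not separate tests. The FPKM of *Ckb* itself overlapped between the ages (two-sided exact permutation test, p = 0.0857). The summed kinase FPKM was 52.2 ± 20.4 at PN21 and 236 ± 186 at PN98 (SD, n = 4 each).

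**Figure D3:**
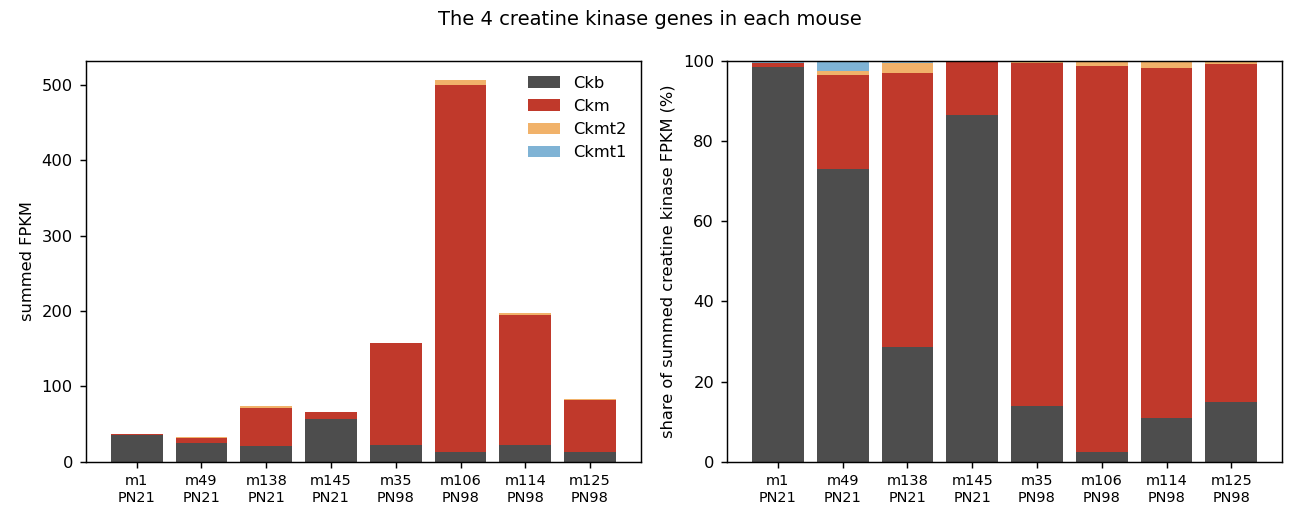
Stacked bars of *Ckb*, *Ckm*, *Ckmt2* and *Ckmt1* in each mouse, as summed FPKM (left) and as a percentage of the sum of the 4 genes (right). *Ckb* (grey) makes up 98.6% in m1 and 2.48% in m106, while *Ckm* (red) makes up at least 84.5% in every PN98 mouse.

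*Ckm* followed a list of mostly fast-fibre genes of skeletal muscle across the mice. The muscle score, the mean log2(FPKM + 1) of these 18 genes, was 1.06 (m1), 2.32 (m49), 4.18 (m138) and 2.098 (m145) at PN21 and 4.52 (m35), 6.24 (m106), 4.92 (m114) and 3.83 (m125) at PN98. Of these genes 17 were tested, 4 rose with age (*Actn3*, *Atp2a1*, *Tcap* and *Myoz1*) and 13 did not pass, with a median log2 fold change of 2.73. A separate list of 8 slow-fibre genes was low, with sums of 8.97 to 25.0 FPKM at PN21 and 4.02 to 6.52 at PN98. Of its 4 genes tested, 1 fell, the slow troponin T gene *Tnnt1* (4.21 ± 1.15 to 1.09 ± 0.681 FPKM, limma adjusted p = 0.0308), and 3 did not pass, with a median log2 fold change of -1.12. *Acta1*, the actin gene of skeletal muscle, was not analysed here. For *Ckm* the Pearson r with the score was 0.98 over 8 mice (permutation p = 0.000149, 0.00312 after Benjamini-Hochberg adjustment over 21 relations) and the Spearman rho was 0.95 (permutation p = 0.00114, adjusted 0.0120). Without m1 and m106, the mice farthest from the median score, r was 0.98 (permutation p = 0.00833, n = 6). For deviations from the mean of each age r was 0.96 (permutation within ages, p = 0.00347, adjusted 0.0365). The labels name no batch.

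*Ckmt2* followed the same score. Its Pearson r was 0.92 over 8 mice (permutation p = 0.000967, adjusted 0.0102) and its Spearman rho was 0.98 (permutation p = 0.000397, adjusted 0.00833). Without m1 and m106 r was 0.86 (permutation p = 0.0333, n = 6), and for deviations from the age means it was 0.90 (permutation p = 0.00174, adjusted 0.0365). With the muscle score as a covariate in limma, the log2 fold change between the ages was 0.76 for *Ckm* (adjusted p = 0.488) and -0.53 for *Ckmt2* (adjusted p = 0.565), while only 3 of all 16094 genes passed in that model.

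Relative to the muscle list, *Ckm* was still higher at PN98. There were 0.480 (m1), 4.72 (m49), 7.71 (m138) and 5.49 (m145) FPKM of *Ckm* per 100 FPKM of the muscle list at PN21, and 12.8 (m35), 13.6 (m106), 13.1 (m114) and 12.3 (m125) at PN98. The PN98 mice lay close together although their summed muscle FPKM ranged from 567 to 3587. All PN98 mice were above all PN21 mice (exact permutation test, p = 0.0286). Without the light chain gene *Myl1*, which dominates the sum in m1, the values were 2.07 to 9.05 at PN21 and 14.3 to 15.3 at PN98. Per 100 FPKM of *Tnnt3*, the fast troponin T gene, *Ckm* was at 7.74 to 48.2 FPKM at PN21 and at 54.6 to 58.0 FPKM at PN98. *Ckmt2* per 100 FPKM of the muscle list was 0 to 0.271 at PN21 and 0.0871 to 0.250 at PN98, and the ranges overlapped (exact permutation test, p = 0.714).

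**Figure D4:**
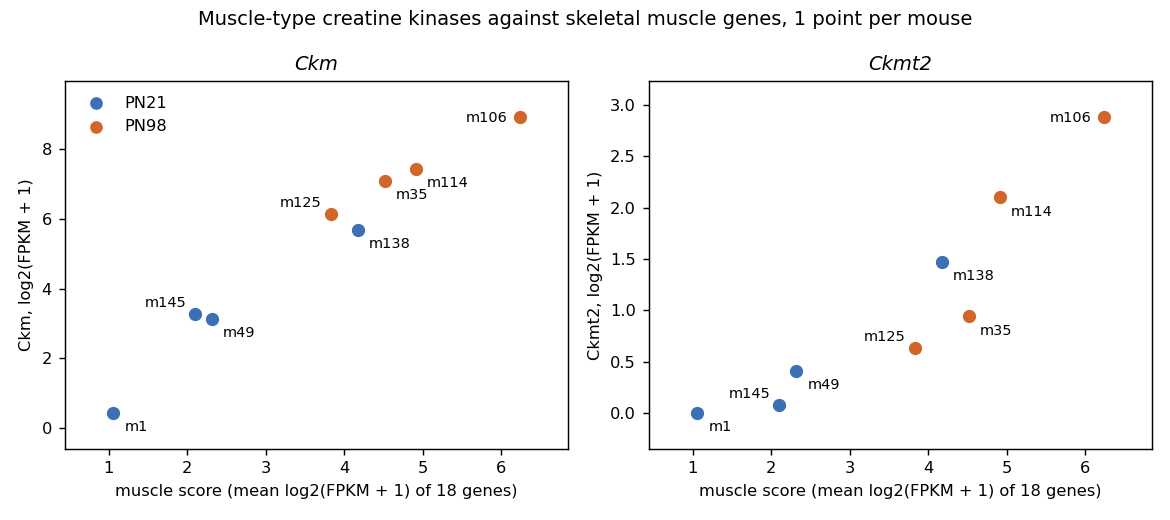
Log2(FPKM + 1) of *Ckm* (left) and *Ckmt2* (right) against the muscle score, with 1 labelled point per mouse (PN21 blue, PN98 orange). Both are lowest in m1 (score 1.06) and highest in m106 (score 6.24), and PN21 mouse m138 (4.18) falls among the PN98 mice on the score.

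*Ckb* and *Gatm* were set against adipocyte genes. The adipocyte score, the mean log2(FPKM + 1) of *Adipoq*, *Plin1*, *Cidec*, *Lipe*, *Pnpla2*, *Cfd*, *Retn* and *Plin4*, lay between 8.27 and 8.79 at PN21 and between 9.56 and 9.98 at PN98, and 4 of these 8 genes rose with age at an adjusted p under 0.05 from limma. Because the ages form separate clusters on this score, no r over all mice is given, and 4 mice per age are too few for one within an age. For deviations from the age means, r was -0.05 for *Ckb* (permutation within ages, p = 0.918) and -0.62 for *Gatm* (permutation p = 0.116, adjusted 0.489). Relative to *Adipoq*, both were lower at PN98 in all mice. *Ckb* was at 18.9 to 60.0 FPKM per 1000 FPKM of *Adipoq* at PN21 and at 4.44 to 8.19 at PN98, and *Gatm* was at 2.93 to 8.07 and at 0.367 to 1.48, respectively. *Adipoq* alone differed by 1.45 of the log2 difference of -2.40 in each ratio, so the ratios are given as a description and no test of *Ckb* or *Gatm*.

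**Figure D5:**
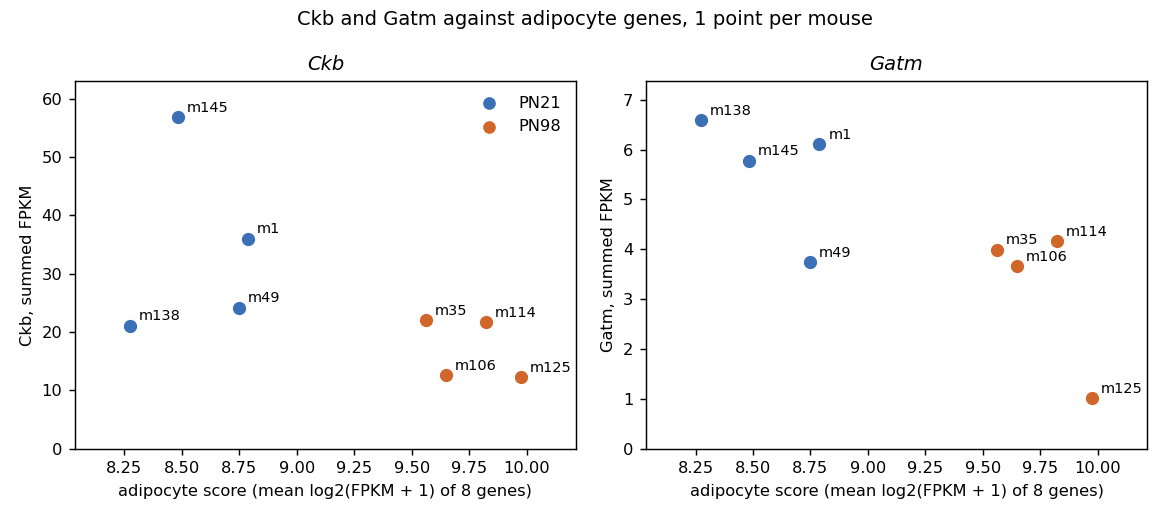
Summed FPKM of *Ckb* (left) and *Gatm* (right) against the adipocyte score, with 1 labelled point per mouse (PN21 blue, PN98 orange). The ages stand apart on the score (at most 8.79 against at least 9.56), and neither relation of deviations from the age means passed the permutation test (p = 0.918 and 0.116).

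None of the other relations passed the adjustment by Pearson r over all mice or by deviations from the age means. By Spearman rho over all mice, *Ckmt1* with *Ucp1* passed (rho = 0.90, permutation p = 0.00536, adjusted 0.0375). Both genes separated the ages, so this rho cannot tell a relation between them from age. *Ckmt1* was at most 0.821 FPKM in any mouse. For deviations from the age means its r with *Ucp1* was 0.08 (permutation p = 0.146, adjusted 0.510). Among the relations of deviations from the age means, the lowest permutation p with the adipocyte score was that of *Ckm* (r = -0.78, p = 0.0486, adjusted 0.255). With the muscle score, *Slc6a8* had an r of 0.72 (permutation p = 0.0393, adjusted 0.137) and a rho of 0.76 (permutation p = 0.0368, adjusted 0.129). *Ckb* had an r of -0.74 (permutation p = 0.0340, adjusted 0.137) and a rho of -0.67 (permutation p = 0.0831, adjusted 0.174). Without m1 and m106, r was 0.81 for *Slc6a8* and -0.60 for *Ckb*, and for deviations from the age means it was 0.23 and -0.44 (permutation p = 0.618 and 0.354). *Ucp1* also separated the ages. For deviations from the age means, the lowest permutation p with *Ucp1* was that of *Ckb* (r = -0.55, p = 0.0365, adjusted 0.255).

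The genes whose pattern was most like each member were found by Pearson r of log2(FPKM + 1) over the 8 mice among 16094 genes, as a description with no test. For *Ckm* they were *Tnnt3* (0.996), *Myh4* (0.989) and *Tnni2* (0.988), all genes of fast muscle fibres. *Tnnt3* was present at 4.49 FPKM in m1 and at 876 in m106, the mice with the lowest and the highest *Ckm*. For *Ckmt2* they were *Tmod4* (0.989), *Smpx* (0.984) and *Ank1* (0.978), with *Tmod4* at 18.5 FPKM in m106. For *Ckb* they were *Rpp25l* (0.990), *Ccdc34* (0.988) and *Stab1* (0.987), each highest in m145. For *Gatm* they were *Kctd5* (0.993), *Kat2a* (0.987) and *Tm7sf3* (0.980), each lowest in m125. For *Gamt* they were *Jmjd8* (0.983), *Lama4* (0.965) and *Matn2* (0.956). For *Slc6a8* they were *Tmem140* (0.965), *Fam177a* (0.960) and *Pacsin3* (0.953). *Tmem140* was at 9.52 to 17.95 FPKM at PN21 and at 34.2 to 46.7 at PN98. The points share library depth and tissue make-up.

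Other genes that handle creatine, its precursors or high-energy phosphate were tested in the same fit. Among phosphate carriers and transporters, 9 of 11 were tested and 1 rose, 0 fell and 8 did not pass. The one that rose was *Slc16a12*, which encodes a monocarboxylate transporter known to carry creatine. It was present at 1.66 (m1), 1.73 (m49), 1.15 (m138) and 1.37 (m145) FPKM at PN21 and at 3.86 (m35), 6.03 (m106), 5.54 (m114) and 3.49 (m125) at PN98. Its log2 fold change was 1.19 (standard error 0.19, limma adjusted p = 0.0161), and the adjusted p stayed under 0.05 in 5 of 8 fits that left out 1 mouse (range 0.0101 to 0.0562), the exceptions being m138, m106 and m114. *Alpl*, which encodes an alkaline phosphatase known to act in the creatine cycle of thermogenic fat, was present at 6.63 ± 6.81 FPKM at PN21 and 4.76 ± 4.69 at PN98 (SD, n = 4 each, limma adjusted p = 0.732). *Slc25a4*, an ADP/ATP carrier of mitochondria, was present at 186 ± 36.9 and 163 ± 27.5 FPKM (limma adjusted p = 0.589).

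Among genes of arginine and glycine metabolism, 11 of 14 were tested, 1 rose, 1 fell and 9 did not pass. *Gldc*, of the glycine cleavage system, rose from 0.461 ± 0.0480 to 2.21 ± 0.826 FPKM (log2 fold change 1.09, limma adjusted p = 0.0286). At PN21 it was low, at 0.402 to 0.512 FPKM, and it met the mean of 1 FPKM needed for the test only through the PN98 mice. Without that filter its limma adjusted p was 0.0373. *Shmt2*, which makes glycine in mitochondria, fell from 17.9 ± 2.71 to 7.65 ± 3.49 FPKM (log2 fold change -1.19, limma adjusted p = 0.0440). With scaling to the summed FPKM outside the mitochondrial genome the adjusted p of *Shmt2* was 0.0715. Among genes of methyl donor metabolism, 10 of 11 were tested, 1 rose, 0 fell and 9 did not pass. The one that rose was *Ahcyl2*, from 35.004 ± 10.4 to 81.8 ± 17.6 FPKM (log2 fold change 1.22, limma adjusted p = 0.0324). With 1 mouse left out, the adjusted p stayed under 0.05 only without m35 for *Gldc* (range 0.00432 to 0.0969) and *Shmt2* (0.00527 to 0.131), and for *Ahcyl2* only without m1, m35 or m125 (0.0204 to 0.0981). The lists' median log2 fold change was -0.22 in the first list, -0.37 in the second and -0.01 in the third, against -0.21 over all genes.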

How the data were processed

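Poly(A)+ RNA of ING WAT of 8 mice was sequenced as 100 bp paired-end reads. Per the labels and the study's methods, the authors mapped reads to mm10 with STAR 2.3.0 and quantified transcripts on Gencode with Cufflinks 2.1.1. The deposited values are FPKM per transcript, held by the authors in a table in which 40426 of 91969 transcripts had lost decimal marks. These were restored from the average, standard deviation and score deposited for the same transcript. A single reading was found for 40301 transcripts, 125 were left out, and 5012 restored transcripts that the authors' second table also lists were equal there in all 8 mice (within 1e-05). That table's fold changes and p-values, the authors' own comparison, were not used. No depth or counting error can be given.

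Transcripts were assigned with GENCODE vM21 (88737) or the table's only gene (1928), and FPKM was summed per gene. Ages were compared with limma 3.58.1 (R 4.3.3) on log2(FPKM + 1) for genes whose FPKM averaged 1 or more, Benjamini-Hochberg over all genes. Fold changes on this scale understate those of low genes. Transcripts were tested on log2(FPKM), above 0 in all mice and with a mean above 2 at either age. Two-sided permutation tests used all pairings or splits. Likeness names the 3 genes with the highest r, and of other lists those with an adjusted p under 0.05 are named, with *Alpl*, *Slc25a4* and *Slc16a12*. Because *Acta1* was not analysed here, the planned muscle list took its place. Ratios within a mouse were added after the values were seen. Members and lists were chosen with earlier results of these data known. The limma p-values set a difference between the ages against the spread between mice. The permutation p-values are shares of all pairings or splits of the mice. Steps were tested on simulated data.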

Additional observations from a re-analysis of the deposited data

Results flagged for a closer look

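Of the 14 groups of 4 mice (7 genes at 2 ages), 3 held a mouse whose distance to its nearest neighbour took up most of the range of its group. For normally distributed values, chance flags about 1 in 20 groups, and FPKM of low genes need not be so distributed. The first is *Ckm* at PN21, where m138 was at 50.4 FPKM and the other mice at 0.347 to 8.71. The summed muscle genes of m138 were 654 FPKM, against 72.4 to 165 in the other PN21 mice. The second is *Gatm* at PN98, where m125 was at 1.02 FPKM and the other mice at 3.66 to 4.17. With median of ratios scaling m125 was at 1.34 FPKM and the others at 3.52 to 4.43. The third is *Ckmt1* at PN98, where m106 was at 0.0354 FPKM and the other 3 mice were listed at 0, so that the distance equals the range by construction.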

How the results depend on the processing

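The count of 845 genes that passed with age was 2501 without m145 and m35, 4641 with limma's array weights, 0 with the adipocyte score as a covariate (1552 at an unadjusted p under 0.05) and 3 with the muscle score as a covariate, which was chosen after seeing the data. With 1 mouse left out it ran from 210 (m106) to 3536 (m35), and only without m125 (573) was it within 1.5 times of 845. Of the genes that passed, 44.5% were higher at PN98 as deposited, against 62.7% under median of ratios scaling and 68.8% when mice were scaled to the summed FPKM outside the mitochondrial genome. Of the 6 creatine genes tested, 0 passed as deposited. With median of ratios scaling 2 passed (*Ckm* and *Slc6a8*), where 1232 of all 16048 genes tested did. With the other scaling 1 passed (*Ckm*), where 831 of 16091 genes did. With array weights 4 passed (*Ckb*, *Ckm*, *Ckmt2* and *Slc6a8*), where 4641 of 16094 genes did. With 1 mouse left out, 0 to 1 creatine genes passed. No creatine transcript passed in any of 14 alternatives. The log2 fold change turned to 1.01 for *Gatm* with the adipocyte score as a covariate (limma adjusted p = 0.705). The ages do not overlap on that score, so this model cannot separate the score from age, and the change of sign is not interpreted. With the muscle score as a covariate the log2 fold change turned to -0.53 for *Ckmt2* and 0.20 for *Gamt* (limma adjusted p = 0.565 and 0.905). The r of *Ckb* with the adipocyte score, -0.05 for deviations from the age means, was 0.069 with median of ratios scaling, 0.43 without m145 and m35, 0.23 with *Adipoq* in place of the score and -0.58 to 0.15 with 1 mouse left out, turning positive without m49 (0.10), m145 (0.13), m35 (0.12) or m125 (0.15). That of *Gatm* was -0.78 to -0.46 with 1 mouse left out, past an unadjusted p of 0.05 only without m1 (exact permutation within ages, p = 0.0278). It was -0.09 with *Adipoq* in place of the score and -0.31 with scaling to the summed FPKM outside the mitochondrial genome. The causes were not tested. The r of *Ckm* (0.98 to 0.99) and of *Ckmt2* (0.88 to 0.96) with the muscle score kept an unadjusted permutation p under 0.05 in 14 alternatives. The alternatives planned for *Acta1* were not run. No paired analysis was possible because the mice of both ages are different animals. Low FPKM, as of *Ckmt1* and *Ckmt2*, cannot be given an error without counts.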
